A study of Equus caballus with 6 samples.

Results

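The aryl hydrocarbon receptor gene AHR and 4 genes that it is known to switch on (CYP1A1, CYP1B1, TIPARP and NQO1) were followed across the inner cell mass (ICM) and the trophectoderm (TE) of horse blastocysts. The genes were taken by their annotated symbols, and all 5 were found, 1 row each, among the 12270 rows of the deposited expression table. The genes were chosen by their RPKM in ICM and TE in these same libraries, so those levels are given as a description, without a test. The blastocysts (Equus caballus) were recovered on day 8 after development in superovulated mares. Each was treated with Pronase, the TE (the outer epithelium that later forms placenta) was dissected off mechanically, and the ICM (which holds the founder cells of the embryo and of the yolk sac endoderm) was purified by immunosurgery. There were 3 libraries of ICM (numbered 15, 22 and 25) and 3 of TE (16, 23 and 24), and the labels name no drug treatment or genetic change for any of them. The labels do not pair ICM and TE libraries by embryo and do not name the mares, so the error is the spread between libraries. Because every ICM went through immunosurgery and no TE did, tissue and isolation cannot be told apart in any comparison.

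The receptor is a transcription factor of the bHLH-PAS family that rests in the cytosol in a complex with the chaperone HSP90 and its helper p23 (encoded by PTGES3). Flat aromatic ligands, among them dioxins and metabolites of tryptophan, release it into the nucleus, where it pairs with ARNT and binds the enhancers of its target genes. CYP1A1 and CYP1B1 encode cytochrome P450 enzymes that oxidise such ligands and also steroids, TIPARP encodes an ADP-ribosyltransferase that restrains the receptor, and NQO1 encodes a quinone reductase that also answers to the stress factor NRF2.

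Depth ranged from 6526212 to 10686659 reads per library over all genes in the table. Levels are RPKM, that is, reads per kilobase of each gene after scaling for depth. The tissue labels were checked on markers. GATA3, a trophoblast factor, stood at 30.9, 31.1 and 36.6 RPKM in TE 16, 23 and 24 and at 1.78, 5.88 and 4.54 in ICM 15, 22 and 25. NANOG, an epiblast factor, stood at 14.1, 12.4 and 1.75 RPKM in ICM 15, 22 and 25 and at 0.15, 0.16 and 0.04 in TE. One ICM library, ICM 25, stood apart: the sum over the 8 epiblast markers was 178 and 172 RPKM in ICM 15 and 22 but 69.0 in ICM 25, against 57.6 to 81.8 in TE, and the sum over the 9 hypoblast markers found was 82.3 and 80.9 but 30.5, against 25.6 to 33.1 in TE. Its sum over the 8 trophectoderm markers found was 50.2 RPKM, within the 49.8 to 77.9 of the ICM libraries and below the 150.3 to 191.5 of TE. Single markers differed. In ICM 25, POU5F1, LIN28A and DPPA4 lay within their TE range, but NANOG, GDF3, KLF4, PRDM14 and SOX2 lay above every TE library. KLF4 was not low in ICM 25, at 8.09 RPKM against 6.80 and 8.88 in ICM 15 and 22. GATA4, GATA6, HNF4A and FOXA2 of the hypoblast list lay below every TE library in ICM 25. BMP2 (6.12 RPKM) and SPARC (5.36) were higher in ICM 25 than in any other library, and PDGFRA (6.14) lay above every TE library. Results that rest on ICM 25 are given with and without it.

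The target genes and their receptor lay on opposite sides. CYP1A1, CYP1B1, TIPARP and NQO1 had higher levels in all 3 ICM libraries than in any TE library, while AHR had lower levels in all 3 ICM libraries than in any TE library. So the libraries did not overlap for 5 of 5 genes, 4 with ICM above and 1 with TE above, beside 24.6% of the 9436 genes tested across the table (6.81% with ICM above and 17.8% with TE above). Nothing is read from these counts, since the genes were picked for this contrast. In bulk tissue, fewer cells of a type and less RNA per cell cannot be told apart.

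**Figure D1:**
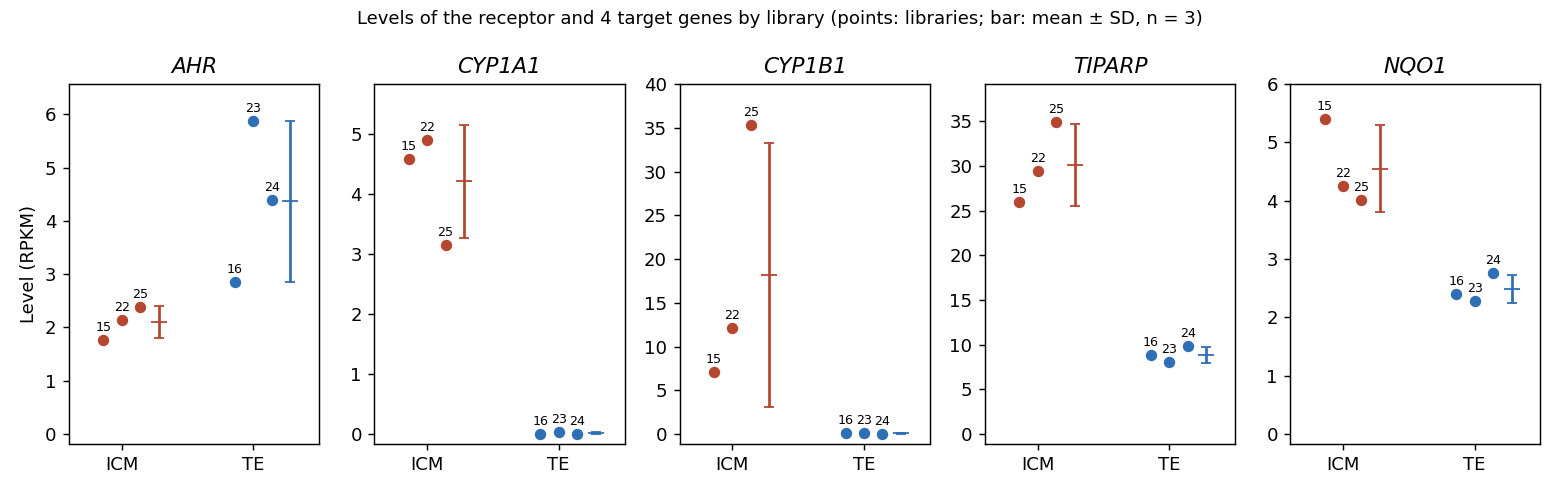
Level of each gene in RPKM (vertical axes, linear and each with its own scale) in the ICM libraries 15, 22 and 25 (red) and the TE libraries 16, 23 and 24 (blue); points are libraries and the bar beside them is the mean ± SD (n = 3). For AHR the TE points lie above the ICM points, and for the other 4 genes all ICM points lie above all TE points, with CYP1B1 in ICM spread from 7.06 to 35.4 RPKM.

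AHR itself was a gene of low to middling level in both tissues. It stood at 1.77, 2.15 and 2.38 RPKM in ICM 15, 22 and 25 (110, 162 and 145 reads) and at 2.84, 5.87 and 4.40 RPKM in TE 16, 23 and 24 (188, 285 and 282 reads). The ICM libraries were close together and the TE libraries were not, and TE 16 came near to ICM 25. The means were 2.10 ± 0.30 RPKM in ICM and 4.37 ± 1.51 in TE (SD, n = 3 each), so TE held 2.08 times the ICM level. On the log2(RPKM + 1) scale the difference, ICM minus TE, was -0.76 (SE 0.28), where the median over all genes tested was -0.15. In the deposited coordinates, whose genome build is not given in the sources used here, AHR lies on chromosome 4 (49685001 to 49729725).

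CYP1A1, the textbook readout of receptor activity, was present in ICM and all but missing from TE. ICM 15, 22 and 25 held 4.58, 4.90 and 3.14 RPKM (190, 247 and 128 reads). TE 16 and 24 held 0 reads and TE 23 held 1 read (0.03 RPKM); 0 reads allow up to 0.068 RPKM in TE 16 and 0.070 in TE 24 (3 reads). ICM levels were thus fairly even, within 1.56-fold of each other. Summed over the libraries and corrected for depth, 565 ICM reads against 1 TE read gave a ratio of 509, with an exact 95% interval for counting error of 90.9 to 20130. The reads come from amplified cDNA without molecular tags, so such intervals and limits understate the error. The intervals also leave out the spread between libraries, and the genes were picked for this contrast, so they are not a test. The log2 difference was 2.35 (SE 0.24), a scale on which the pseudocount of 1 compresses genes near 0. CYP1A1 lies on chromosome 1 (119015291 to 119018001 as deposited). Its close relative CYP1A2, its nearest coding neighbour in the RefSeq gene table for a thoroughbred, was not found by symbol in the expression table. How the authors' counting treated reads that fit both genes is not given in the sources used here.

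CYP1B1, which hydroxylates oestrogens and other small aromatic molecules, had the largest log2 difference of the 5 genes. ICM 15, 22 and 25 held 7.06, 12.1 and 35.4 RPKM (300, 627 and 1478 reads), against 0.066, 0.060 and 0.023 RPKM in TE 16, 23 and 24 (3, 2 and 1 reads). Even the lowest ICM library was 107 times the highest TE library, but the ICM libraries differed 5.01-fold among themselves, with ICM 25 the highest. The means were 18.2 ± 15.1 and 0.05 ± 0.02 RPKM (n = 3 each), and 2405 ICM reads against 6 TE reads gave a depth-corrected ratio of 361 (exact 95% counting interval 166 to 985). Without ICM 25 the ICM mean was 9.59 RPKM and the ratio 201 (91.9 to 549). The log2 difference of 3.90 (SE 0.48) was the second highest in the ICM direction among the 9436 genes tested, and without ICM 25 it was 3.29. Since the gene was picked for this contrast, its rank is a description only. CYP1B1 lies on chromosome 15 (59747828 to 59752363 as deposited).

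The 2 P450 genes did not follow each other within ICM. ICM 25 was the highest of the ICM libraries in CYP1B1 and the lowest in CYP1A1. The ratio of CYP1B1 to CYP1A1, both per length, was 1.54 in ICM 15, 2.48 in ICM 22 and 11.3 in ICM 25. The SD of CYP1B1 among ICM libraries was 1.11 on the log2(RPKM + 1) scale and that of CYP1A1 was 0.28, where the median gene tested had 0.44. Among TE libraries the median gene tested had 0.19. The part of the low epiblast and hypoblast marker sums of ICM 25 in this spread was not tested.

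TIPARP was the most abundant of the 5 genes in TE and varied little within each tissue. It stood at 25.9, 29.5 and 34.96 RPKM in ICM 15, 22 and 25 and at 8.86, 8.01 and 9.80 RPKM in TE 16, 23 and 24. Each tissue was even, and the lowest ICM library was 2.65 times the highest TE library. The means were 30.1 ± 4.55 and 8.89 ± 0.89 RPKM (n = 3 each), with a log2 difference of 1.65 (SE 0.23). Unlike the P450 genes it was well expressed in both tissues: its level exceeded that of 89.0% to 94.2% of the rows of the table in ICM and of 67.7% to 70.8% in TE. Set against its receptor in the same library, TIPARP was 13.7 to 14.7 times AHR in ICM and 1.36 to 3.12 times AHR in TE. The gene lies on chromosome 19 (541058 to 567023 as deposited).

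NQO1 showed the smallest gap of the 4 targets. ICM 15, 22 and 25 held 5.40, 4.24 and 4.005 RPKM (133, 127 and 97 reads) and TE 16, 23 and 24 held 2.40, 2.28 and 2.75 RPKM (63, 44 and 70 reads). The tissues stayed apart, the lowest ICM library at 1.46 times the highest TE library. The means were 4.55 ± 0.75 and 2.48 ± 0.24 RPKM (n = 3 each), and the log2 difference was 0.67 (SE 0.23). NQO1 lies on chromosome 3 (19720067 to 19735454 as deposited). No other gene overlaps any of the 5 in that gene table.

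The order of levels in ICM, by mean RPKM, was TIPARP, CYP1B1, NQO1, CYP1A1 and AHR. In ICM 25 CYP1B1 reached TIPARP (35.4 and 34.96 RPKM), and NQO1 and CYP1A1 did not differ beyond their spread. In TE the order was TIPARP, AHR, NQO1, CYP1B1 and CYP1A1, of which AHR and NQO1 nearly met at their nearest libraries (2.84 RPKM in TE 16 and 2.75 in TE 24), and CYP1B1 and CYP1A1 were both near 0. CYP1A1 and CYP1B1 passed the filter for testing (at least 1 RPKM in at least 3 libraries) through ICM alone, and the other 3 genes through both tissues.

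Among the 16 cytochrome P450 genes of the table, described after their values were seen, CYP1B1 was second by mean level in ICM and second from last in TE, and CYP1A1 was eighth in ICM and last in TE. Without ICM 25 they were the fourth and the seventh in ICM, with CYP51A1, CYP4V2 and CYP20A1 above CYP1B1. CYP51A1, a sterol synthesis enzyme, was first in both tissues (54.4 ± 13.1 RPKM in ICM and 101 ± 19.1 in TE). CYP20A1 (12.8 ± 1.83 and 10.7 ± 1.09) and CYP11A1, which starts steroid synthesis (4.04 ± 1.52 and 3.46 ± 1.35), had overlapping libraries. The steroid enzyme CYP17A1 was, like CYP1B1, highest in ICM 25, at 31.7 RPKM against 1.048 and 2.41 in ICM 15 and 22, but its TE libraries held 3.56 to 5.17. CYP2S1, another reported target of the receptor, lay the other way, at 4.27 ± 1.46 in ICM and 7.79 ± 0.45 in TE.

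**Figure D2:**
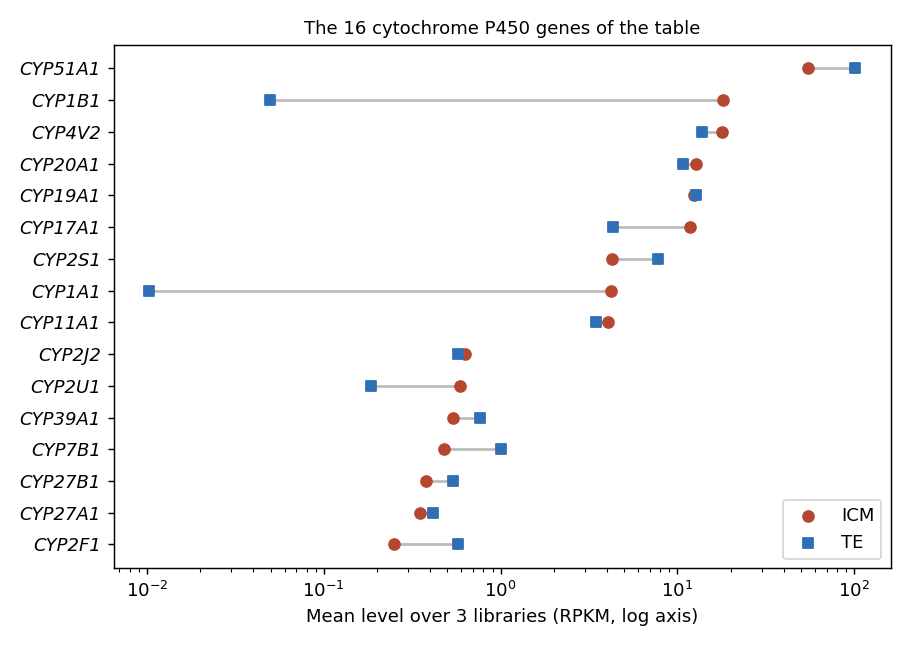
Mean level over 3 libraries in ICM (red circles) and TE (blue squares) of the 16 cytochrome P450 genes in the table, on a log axis in RPKM; a grey line joins the 2 means of a gene. CYP1B1 (18.2 against 0.05 RPKM) and CYP1A1 (4.21 against 0.01) have the longest lines.

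The complex that holds the receptor was followed in 8 genes found and tested. Their libraries overlapped for 5, lay higher in TE for PTGES3 and STIP1 and higher in ICM for FKBP5, beside the 17.8% and 6.81% of all genes given above. Calls rest on the fit over all genes (limma on log2(RPKM + 1), Benjamini-Hochberg adjusted p under 0.05), which called 1.87% of all genes. An unadjusted p under 0.05 was found for 1592 of the 9436 genes tested, the share to set beside such counts below. Of the 8 complex genes 0 were called in either direction (2 had an unadjusted p under 0.05), with a median log2 difference of -0.25. HSP90AB1, an HSP90 gene, had means of 677 ± 215 RPKM (ICM) and 799 ± 102 RPKM (TE), and HSP90AA1 had 254 ± 44.1 and 301 ± 92.7. PTGES3 stood at 32.4, 44.8 and 35.4 RPKM in ICM 15, 22 and 25 and 51.3, 45.2 and 45.3 in TE 16, 23 and 24 (limma adjusted p = 0.52), and STIP1, which links HSP70 to HSP90, at 41.3, 56.5 and 28.1 against 61.2, 59.3 and 79.3 (adjusted p = 0.28). The immunophilin FKBP5, which responds to steroids, went the other way, at 3.40, 3.37 and 1.16 RPKM in ICM against 0.44, 0.30 and 0.85 in TE; it passed the filter through ICM alone. Its limma adjusted p was 0.11, and 0.0096 without ICM 25, and over all alternatives it ran from 0.0091 to 0.42. The fit without ICM 25 called 1086 of the 9436 genes tested, the number to set beside each value from it below. The fit called 0 genes without TE 16 and 1 each without TE 23 and TE 24.

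ARNT, the partner that the receptor needs on DNA, stood at 4.24, 6.25 and 8.07 RPKM in ICM 15, 22 and 25 and at 6.75, 6.75 and 6.15 in TE 16, 23 and 24, so the TE values lay inside the ICM range (log2 difference -0.11, SE 0.27, limma adjusted p = 0.88). Rescaling by the median of ratios or by quantiles turned its difference to 0.025 and 0.054. The feedback repressor AHRR and the second partner ARNT2 were not found by symbol in the table, so they have no level here. Of the 5 bHLH-PAS relatives tested, 0 were called, beside 1.87% of all genes (1 with an unadjusted p under 0.05). EPAS1, the hypoxia factor HIF-2 alpha, which also pairs with ARNT, stood at 3.39, 8.43 and 13.05 RPKM in ICM against 21.6, 33.5 and 27.9 in TE (limma log2 difference -1.76, SE 0.41, adjusted p = 0.073, and 0.0089 without ICM 25). Over all alternatives the limma adjusted p of EPAS1 ran from 0.0069 to 0.33. ARNTL2 overlapped, at 6.16, 4.16 and 0.78 RPKM in ICM 15, 22 and 25 against 1.42 to 1.53 in TE. Its limma adjusted p was 0.48, and 0.013 without ICM 25, where ICM was higher, and reached 0.77 among the alternatives. HIF1A was nearly level, from 41.9 to 42.7 RPKM in ICM and from 42.8 to 46.4 in TE.

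**Figure D3:**
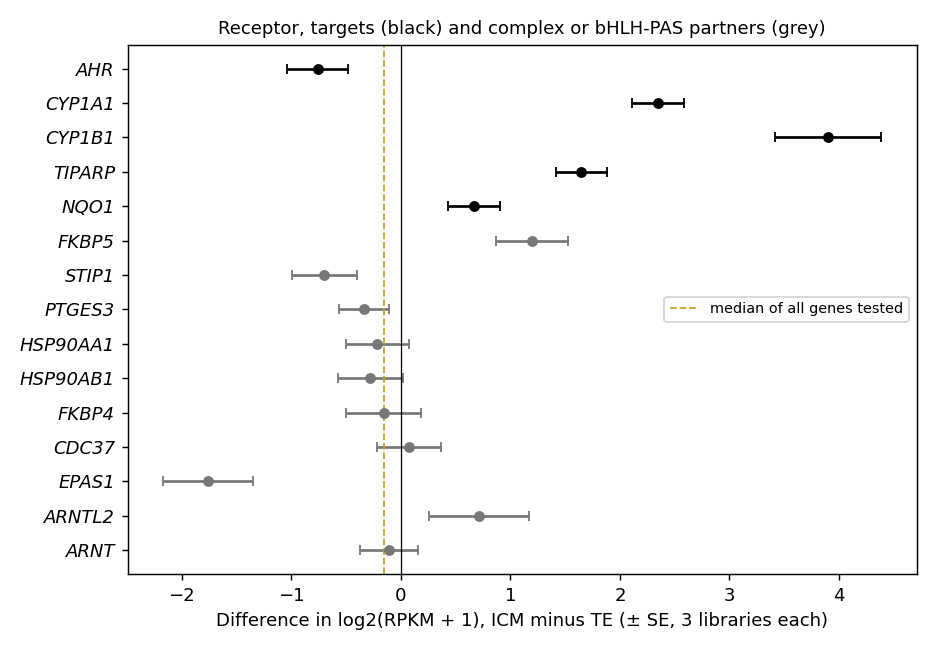
Difference in log2(RPKM + 1), ICM minus TE, with its SE (3 libraries each) for AHR and its targets (black) and for genes of the receptor complex and bHLH-PAS partners (grey); the dashed line is the median of all genes tested, -0.15. The 4 targets lie to the right of 0 and AHR to the left, and ARNT (-0.11) and HSP90AA1 (-0.21) lie near the dashed line.

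Genes that repress the receptor or degrade it and its coactivators formed a pair of lists, read against 1.87% called among all genes. In the first list 0 of 10 genes tested were called by limma (0 with an unadjusted p under 0.05; median log2 difference -0.21) and in the second 0 of 13 (1 with an unadjusted p under 0.05; median 0.09). XPO1, the export receptor that carries AHR out of the nucleus, held 12.3, 12.4 and 5.12 RPKM in ICM against 13.1 to 14.8 in TE (limma adjusted p = 0.47). The coactivator NCOA1 was at 3.19, 5.24 and 10.9 RPKM in ICM against 14.1 to 15.7 in TE (adjusted p = 0.14, and 0.0062 without ICM 25), and NCOA3 at 60.8, 46.2 and 16.4 against 18.8 to 22.7 (adjusted p = 0.41, and 0.0071 without ICM 25). Among the alternatives the limma adjusted p reached 0.42 for NCOA1 and 0.73 for NCOA3. The general coactivator EP300 overlapped, at 33.5 to 37.6 RPKM in ICM and 28.3 to 35.2 in TE.

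Other genes reported as receptor targets lay on both sides. Of the 34 listed, 22 were in the table and 17 were tested. Limma called 2 of them, both with TE higher, beside 0.933% of all genes in each direction. An unadjusted p under 0.05 was found for 7 of the 17, beside 1592 of the 9436 genes tested across the table. The median log2 difference was 0.06, with 9 genes above 0 and 8 below, and without ICM 25 the median was -0.20. The 2 calls were PTGS2, the inducible prostaglandin synthase, at 28.9, 50.4 and 43.8 RPKM in ICM 15, 22 and 25 against 170, 242 and 112 in TE 16, 23 and 24 (limma log2 difference -2.03, SE 0.34, adjusted p = 0.029), and the immediate-early factor FOS, at 4.55, 17.9 and 8.07 against 42.7, 34.6 and 56.0 (log2 difference -2.18, SE 0.42, adjusted p = 0.045). Neither overlapped between tissues. Both calls were lost without ICM 15 (adjusted p = 0.090 for PTGS2 and 0.11 for FOS) and without TE 16 (0.16 and 0.19), TE 23 (0.17 and 0.17) or TE 24 (0.11 and 0.19), and that of PTGS2 also without ICM 22 (0.056). FOS also missed the threshold with a pseudocount of 0.1 (0.054), with no filter (0.053) and with a filter of 5 RPKM (0.0504).

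SCIN, an actin-severing protein, had the largest difference towards ICM among the 17 genes tested in that list. It stood at 1.59, 1.04 and 1.95 RPKM in ICM and 0.15, 0.09 and 0.23 in TE, and just missed the threshold (log2 difference 1.11, SE 0.24, limma adjusted p = 0.054); like CYP1A1 it passed the filter through ICM alone. Without ICM 25 its adjusted p was 0.036, and over all alternatives it ran from 0.026 to 0.30. NQO2, the relative of NQO1, stood at 3.28, 4.71 and 2.91 RPKM in ICM against 2.74, 1.73 and 2.52 in TE, apart by a narrow margin (adjusted p = 0.41). The angiogenic factor VEGFA (3.81, 9.01 and 9.65 RPKM in ICM against 17.0, 24.2 and 20.7 in TE) and MYC (1.89, 5.11 and 0.90 against 6.03, 7.25 and 10.8) lay higher in TE in every library. Neither was called (limma adjusted p = 0.077 and 0.13), but without ICM 25 VEGFA was (adjusted p = 0.017, and 0.092 for MYC). The highest limma adjusted p among the alternatives was 0.35 for VEGFA and 0.42 for MYC.

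**Figure D4:**
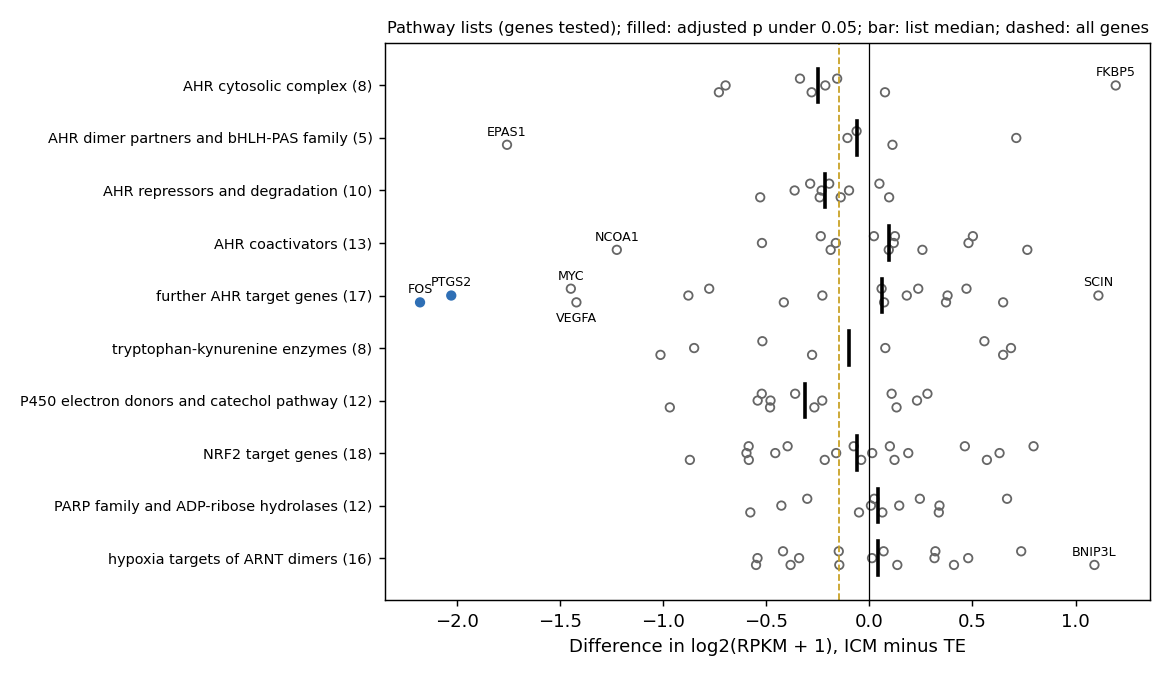
Difference in log2(RPKM + 1), ICM minus TE, of each tested row (circles) in 10 lists around the receptor, with the number of rows tested in brackets (CYB5A has 2 rows); filled circles passed limma at an adjusted p of 0.05, bars are list medians and the dashed line is the median of all genes. The filled circles are FOS (-2.18) and PTGS2 (-2.03), and list medians run from -0.31 to 0.09.

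The list of enzymes and amino acid carriers behind tryptophan-derived ligands held 4 genes with a difference above 0 and 4 below (8 tested, 0 called by limma beside 1.87% of all genes, 2 with an unadjusted p under 0.05, median log2 difference -0.10). The first enzymes of the pathway, TDO2, IDO1 and IDO2, were not found by symbol in the table, so they have no level here. AFMID, which forms kynurenine, stood at 8.48, 5.16 and 2.89 RPKM in ICM against 9.12, 11.5 and 13.9 in TE (adjusted p = 0.19), and CCBL1, a kynurenine aminotransferase, at 9.91, 9.42 and 3.64 against 13.3 to 14.1 (adjusted p = 0.26). For the electron donors that P450 enzymes need and the catechol pathway that follows them, 0 of 12 rows, which stand for 11 genes since CYB5A has 2 rows, were called beside 1.87% of all genes (1 with an unadjusted p under 0.05, median -0.31). POR, the reductase that feeds electrons to CYP1A1 and CYP1B1, was higher in every TE library: 12.4, 14.1 and 9.89 RPKM in ICM against 23.9, 28.6 and 21.6 in TE (limma log2 difference -0.97, SE 0.24, adjusted p = 0.089, and 0.029 without ICM 25). Its limma adjusted p reached 0.43 among the alternatives.

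NQO1 was set beside the other targets of NRF2. Of 18 tested, 0 were called by limma in either direction, beside 1.87% of all genes (2 with an unadjusted p under 0.05), with a median log2 difference of -0.06. NFE2L2, which encodes NRF2, had means of 51.8 ± 13.6 RPKM (ICM) and 67.3 ± 7.40 RPKM (TE), and its inhibitor KEAP1 had means of 1.17 ± 0.41 and 1.01 ± 0.20. TXNRD1, a thioredoxin reductase, held 49.3, 72.4 and 62.9 RPKM in ICM against 87.8 to 98.1 in TE (adjusted p = 0.26). GCLM, of glutathione synthesis, stood at 40.1 and 29.8 RPKM in ICM 15 and 22 but at 6.28 in ICM 25, against 9.88 to 16.1 in TE (adjusted p = 0.63, and 0.012 without ICM 25). Its limma adjusted p reached 0.92 among the alternatives.

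TIPARP was set beside its family and the enzymes that remove ADP-ribose. Of 12 genes tested, 0 were called by limma, beside 1.87% of all genes (1 with an unadjusted p under 0.05), with a median log2 difference of 0.04. PARP8 stood at 2.48, 3.005 and 2.35 RPKM in ICM against 1.28, 1.56 and 0.99 in TE (log2 difference 0.67, SE 0.23, adjusted p = 0.19). PARG, which degrades poly-ADP-ribose, held 8.74, 9.34 and 7.02 RPKM in ICM against 10.2 to 12.5 in TE (adjusted p = 0.40). Among the 16 hypoxia genes tested, which answer to ARNT in its pairs with HIF proteins, 0 were called against the same background (1 with an unadjusted p under 0.05, median 0.04). NDRG1 held 11.6, 21.1 and 27.5 RPKM in ICM against 10.7 to 11.2 in TE (limma adjusted p = 0.28). ALDOA, a glycolytic enzyme, held 101, 113 and 152 against 155 to 195 (limma adjusted p = 0.32, and 0.045 without ICM 25). Its limma adjusted p reached 0.71 among the alternatives.

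Taking the 10 lists with each row once, 118 rows of 117 genes were tested and 2 were called, both with TE higher, or 1.69% beside 1.87% of all genes. Of the 118 rows, 18 had an unadjusted p under 0.05, beside 1592 of the 9436 genes tested. The median log2 difference was -0.09, beside -0.15 for all genes. Without ICM 25 the lists held 8 calls higher in ICM and 7 higher in TE, in a fit that called 1086 of 9436 genes. Those higher in ICM were FKBP5, ARNTL2, NCOA3, SCIN, GCLM, QPRT, FDX1 and NEDD9. The last of these, not given above, were QPRT (limma adjusted p = 0.034), FDX1 (0.039) and NEDD9 (0.048). Those higher in TE were EPAS1, NCOA1, PTGS2, FOS, VEGFA, POR and ALDOA.

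ICM 25 was set beside ICM 15 and 22 in the target lists. Among the 17 further targets tested, 2 (11.8%) lay over 1 log2 unit above the mean of ICM 15 and 22 in ICM 25 and 2 (11.8%) as far below. Among the 18 NRF2 genes 3 (16.7%) and 2 (11.1%) did. The shares over all genes tested were 4.33% above and 17.7% below. The haem oxygenase HMOX1, of the NRF2 list, stood at 23.6 RPKM in ICM 25 against 4.12 and 5.17 in ICM 15 and 22 and 5.39 to 10.9 in TE. The coactivator NCOA7 stood at 60.3 RPKM against 4.05 and 6.47 in ICM and 6.69 to 10.1 in TE; both were singled out after their values were seen. Among the 5 genes, relative to ICM 15 and 22, ICM 25 was 1.82 higher on the log2(RPKM + 1) scale in CYP1B1, 0.33 in TIPARP and 0.19 in AHR, and was 0.47 lower in CYP1A1 and 0.21 lower in NQO1.

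**Figure D5:**
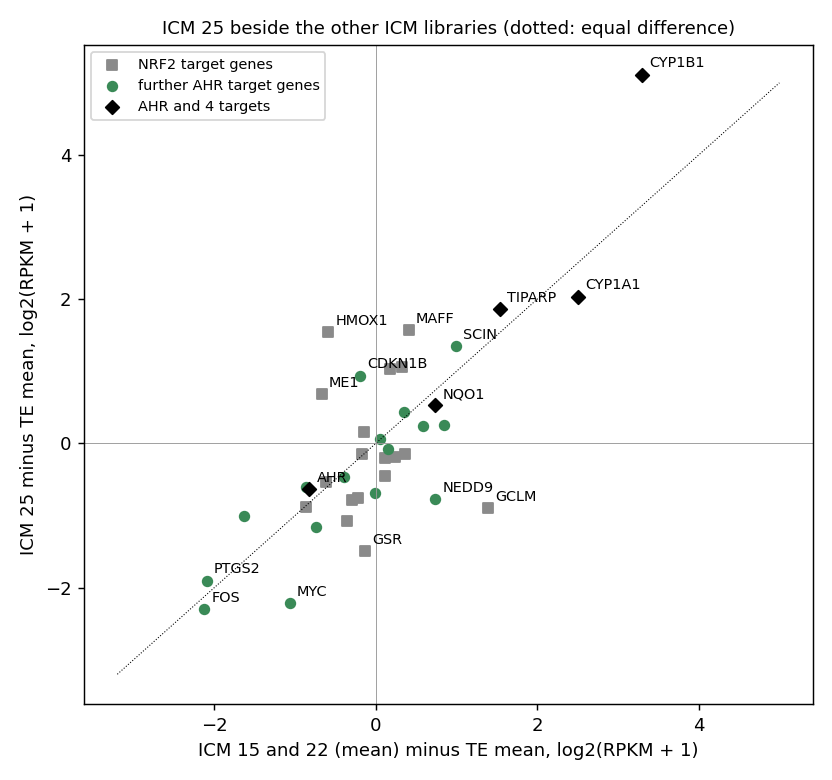
Horizontal axis: mean of ICM 15 and 22 minus the TE mean; vertical axis: ICM 25 minus the TE mean, both in log2(RPKM + 1), for AHR and its 4 targets (black diamonds), further targets (green circles) and NRF2 genes (grey squares). On the dotted line ICM 25 equals the other ICM libraries; CYP1B1 (3.29 and 5.11) and HMOX1 (-0.59 and 1.54) lie above it, and CYP1A1 (2.51 and 2.04) and GCLM (1.39 and -0.89) below it.

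Each gene's nearest matches over the 6 libraries were found by Pearson's r of log2(RPKM + 1) among the genes tested; with 2 tissues well apart, r mostly follows the tissue split and is a description only. CYP1A1 was most like KIF5C, a kinesin (r = 0.998, 2.32, 2.21 and 1.60 RPKM in ICM 15, 22 and 25 and 0.04 to 0.10 in TE), TMEM45B (0.997) and the small GTPase RRAD (0.994). CYP1B1 was most like MAP1B, a microtubule protein (r = 0.997, 1.81, 2.75 and 4.61 RPKM in ICM and 0.39 to 0.50 in TE), the chemokine listed as MGSA (0.996; 3.22, 4.57 and 7.41 against 0.09 to 0.12) and GGCX (0.995). TIPARP was most like the junction protein JUP (0.996), ZSWIM6 (0.996) and the kinase STK24 (0.996), and NQO1 was most like FHL3 (0.997), the integrin ITGB5 (0.995) and DENND5A (0.995). AHR was most like PON2, a paraoxonase (r = 0.983, 0.35, 0.49 and 0.86 RPKM in ICM and 1.46, 3.92 and 3.34 in TE 16, 23 and 24), PRDM4 (0.980) and RAD1 (0.977), which, like AHR, were highest in TE 23.

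Markers of other cells that the dissection could hold were looked up, and many were not in the table. A marker missing from the table has no level here, so its cells may or may not have been present. Of 5 endothelial markers 0 were in the table, and of 8 erythroid markers only ALAS2 was, at 0.74 to 2.68 RPKM in ICM and 0.54 to 1.40 in TE. The 5 of 9 leukocyte markers found summed to 2.35, 2.66 and 7.18 RPKM in ICM 15, 22 and 25 and to 1.65 to 2.86 in TE. The 3 of 8 mesenchyme markers found, cells in which CYP1B1 is known to be expressed, summed to 11.8, 9.65 and 2.84 RPKM in ICM 15, 22 and 25 and to 4.36 to 6.07 in TE. Of these, COL1A2 stood at 9.46, 6.07 and 0.35 RPKM in ICM 15, 22 and 25 and 0.02 to 0.04 in TE, THY1 at 1.47, 2.85 and 1.35 against 0 to 0.43, and PDGFRB at 0.83, 0.73 and 1.15 against 4.34 to 5.61. COL1A2 and THY1 were thus higher in every ICM library and PDGFRB in every TE library. The 2 of 7 cumulus markers found summed to 33.0 RPKM in ICM 25, 5.39 and 7.15 in ICM 15 and 22 and 5.67 to 19.2 in TE. CYP19A1 made up most of each sum, at 4.36, 6.52 and 26.1 RPKM in ICM 15, 22 and 25 and 5.36 to 19.1 in TE. PTX3 stood at 1.04, 0.63 and 6.87 RPKM in ICM 15, 22 and 25 against 0.10 to 0.39 in TE. The 3 of 6 markers of oviduct or uterine epithelium summed to 1.97 to 3.86 RPKM in ICM and 2.37 to 3.15 in TE, and the 2 of 7 liver markers to 9.11 to 11.8 and 6.84 to 12.02. The part of such cells in the levels of the 5 genes was not tested.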

How the data were processed

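The authors deposited 1 table with RPKM for 6 libraries, per the file headers. FastQC and DESeq are named in the submitters' processing notes; aligner, counter, build and annotation were not given in the sources used here. In addition, the deposited baseMean signal (mean normalized counts, per the file headers) and the RPKM together gave back whole reads within 0.001 for 100% of values of up to 1000 reads. Genes reaching 1 RPKM in 3 or more libraries (9436) were fitted as log2(RPKM + 1) with limma 3.58.1 (R 4.3.3, eBayes with trend, two-sided, Benjamini-Hochberg over all genes, threshold 0.05). The fit takes 1 variance per gene for both tissues, while the median SD over genes was 0.44 in ICM and 0.19 in TE. It was run on simulated counts whose spread was alike in all genes and both tissues. That run cannot show how the calls behave under the uneven spread here. A pseudocount of 1 understates changes of low genes. Other values were computed with Python 3.11.15. The members and lists were chosen with earlier results of these data known. Genes planned for naming were the members and, in each list, the calls, the 3 smallest p, all complex genes and ARNT. The 3 nearest genes by r were planned too. Not all of these are named in the text, and others named were chosen after their values were seen. SLC7A5 is in 2 lists. Strand was not stated. All 5 symbols matched the RefSeq gene table, used for names and neighbours only. Alternatives were another pseudocount, filters, rescaling, library weights, voom on recovered reads and leaving out each library; read ratios and P450 ranks without ICM 25 were added after the data were seen. A few listed genes are counted but not reported here by name or plotted with ICM 25 and the complex. No sequences were used here.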

Additional observations from a re-analysis of the deposited data

How the results depend on the processing

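The direction of the difference between ICM and TE held for AHR, CYP1A1, CYP1B1, TIPARP and NQO1 in each alternative that kept the gene; a filter of 5 RPKM dropped AHR, CYP1A1 and NQO1. Sizes moved by more than the spread for 3 genes: with a pseudocount of 0.1 the log2 difference was 5.27 for CYP1A1, 6.62 for CYP1B1 and 0.84 for NQO1, and with voom on recovered reads 7.83, 7.95 and 0.85, since both compress low genes less. Leaving out 1 library gave -0.98 to -0.56 for AHR, 2.25 to 2.51 for CYP1A1, 3.29 to 4.38 for CYP1B1, 1.54 to 1.75 for TIPARP and 0.56 to 0.74 for NQO1. Over all genes 176 were called (88 higher in ICM and 88 in TE), 112 with a pseudocount of 0.1, 114 unfiltered, 81 at the 5 RPKM filter, 760 under library weights and 125 by voom; rescaling by the median of ratios gave 126 higher in ICM and 83 in TE, quantile normalization 129 and 77. Leaving out 1 library gave 0 (without TE 16, where 983 had an unadjusted p under 0.05) to 1086 (without ICM 25), with 18 without ICM 15, 76 without ICM 22 and 1 each without TE 23 and TE 24. The 2 calls in the pathway lists became 1 under a pseudocount of 0.1, 1 when no genes were filtered, 1 at the 5 RPKM filter and 10 under library weights, and ranged from 0 to 15 with 1 library left out (15 without ICM 25, 1 without ICM 22 and 0 without each of the other 4); the cause was not tested. Genes near 0 turned sign, all uncalled: FKBP4 to 0.030 with quantile normalization and 0.15 with library weights, ARNT to 0.025 and 0.054 with median of ratios and quantile normalization. With 1 library left out FKBP4 ranged from -0.376 to 0.24, ARNT from -0.29 to 0.10, CDC37 from -0.11 to 0.31 and HSP90AA1 from -0.35 to 0.025. No paired analysis was made because the labels tie no ICM library to a TE library by embryo. The fit treats all libraries as independent, which could not be checked. Depth limits CYP1A1 and CYP1B1 in TE, where single reads decide the value.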
